A study of Mus musculus with 5 samples.

Results

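Chief cells, also called zymogenic cells, are the enzyme-secreting cells at the base of the gastric glands, and 7 genes of their digestive products and identity were followed here out of 19938 genes measured on the arrays. The genes were taken from a fixed list of 8 symbols, in which Gif and Cblif are older and current symbols of intrinsic factor. Each was read from a probe set that names it alone, and each of the 7 had 1 such probe set. All 7 lay above the level used as a filter (7.41 on the log2 scale), which is the median over genes of their mean level.

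Total RNA was profiled on 5 arrays, with 1 array per group, from 5-week-old male mice of the ddY stock. The groups were LG21+Asp (Lactobacillus gasseri OLL2716, then aspirin), Tep+Asp (teprenone, a mucosal protective drug, then aspirin), GA+Asp (gum arabic, then aspirin), LG21+GA (the bacterial strain, then gum arabic) and GA+GA (gum arabic given both times, the control). Every group received 2 oral administrations 0.5 hours apart and tissue was taken 4 hours after the last. There were no replicates within a group, and the sources used here do not say if RNA of several mice was pooled for an array, so pairs of arrays are described and not tested.

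The pepsinogens are inactive precursors that gastric acid converts to pepsin. In mice, chief cells also secrete intrinsic factor, which carries vitamin B12 to its receptor in the ileum. Bhlha15, also known as Mist1, and Xbp1 are transcription factors that build the secretory apparatus, with Xbp1 expanding the endoplasmic reticulum and acting upstream of Bhlha15 in mouse chief cells. Lrig1 is a membrane protein that restrains ErbB receptors and marks epithelial progenitors, and Tnfrsf19, or Troy, is a Wnt-associated receptor that marks a subset of chief cells with reserve stem cell activity in mice.

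Promoter sequence is shown for the 3 genes whose 3 aspirin arrays all lay above both aspirin-free arrays (Bhlha15, Xbp1 and Lrig1) and for Pgc, whose level varied least of the 7. Arrays with and without aspirin did not overlap in 12.5% of all genes, in either direction, so the choice does not mark a response to aspirin. The RefSeq promoter table of build GRCm38.p6 had entries for 6 of the 7 genes. The 250 bases before each annotated start are printed from 5′ to 3′, for Bhlha15 from chr5:144190036-144190285, plus strand, for Xbp1 from chr11:5520391-5520640, plus strand, for Lrig1 from chr6:94700146-94700395, minus strand and for Pgc from chr17:47726592-47726841, plus strand. Capitals mark matches to CANNTG, the E-box read by factors of the Bhlha15 class, to ACGTG, a core of elements bound by Xbp1, and to the TATA sequence TATAAA, each searched on both strands.
Bhlha15: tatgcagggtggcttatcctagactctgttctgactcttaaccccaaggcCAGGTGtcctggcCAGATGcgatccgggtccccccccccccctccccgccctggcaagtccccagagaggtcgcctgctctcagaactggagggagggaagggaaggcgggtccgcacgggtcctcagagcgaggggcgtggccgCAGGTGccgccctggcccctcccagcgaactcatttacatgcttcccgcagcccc
Xbp1: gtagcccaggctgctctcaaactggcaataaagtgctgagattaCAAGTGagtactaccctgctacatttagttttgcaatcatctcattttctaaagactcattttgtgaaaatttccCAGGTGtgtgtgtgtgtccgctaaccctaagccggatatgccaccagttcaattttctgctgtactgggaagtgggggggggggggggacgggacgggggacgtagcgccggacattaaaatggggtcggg
Lrig1: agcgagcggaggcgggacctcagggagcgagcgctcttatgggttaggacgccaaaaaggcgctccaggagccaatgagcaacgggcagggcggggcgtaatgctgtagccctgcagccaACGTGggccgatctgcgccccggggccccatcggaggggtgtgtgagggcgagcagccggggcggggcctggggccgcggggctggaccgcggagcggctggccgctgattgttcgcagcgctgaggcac
Pgc: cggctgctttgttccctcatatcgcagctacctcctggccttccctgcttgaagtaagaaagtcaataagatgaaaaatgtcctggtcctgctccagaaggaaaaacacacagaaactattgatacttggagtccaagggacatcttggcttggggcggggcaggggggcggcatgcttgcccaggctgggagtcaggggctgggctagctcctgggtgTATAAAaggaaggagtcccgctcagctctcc
The Bhlha15 window held 3 E-boxes, at -200, -187 and -55 from the start, and the Xbp1 window held 2, at -206 and -131. The Lrig1 window held 1 ACGTG match at -130, and the Pgc window 1 TATAAA match at -31. Across 32851 promoter windows of the same length, 66.2% held a CANNTG match, 16.6% ACGTG and 12.4% TATAAA. No matches overlapped in these 4 windows. The matches describe the sequence alone.

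The major secreted products were at closely similar levels on all arrays. Pgc, which encodes pepsinogen C, stood at 13.51 in LG21+Asp, 13.54 in Tep+Asp, 13.54 in GA+Asp, 13.54 in LG21+GA and 13.55 in GA+GA on the log2 scale. Its 5 values spanned 0.037, and LG21+Asp was the lowest array. Cblif, which encodes intrinsic factor, stood at 13.16 in LG21+Asp, 13.20 in Tep+Asp, 13.20 in GA+Asp, 13.15 in LG21+GA and 13.18 in GA+GA. Both LG21 arrays lay below the other 3 for Pgc and for Cblif, by small margins. Arrays with and without LG21 did not overlap in 9.87% of all genes, in either direction. For Pgc this order was lost under other normalizations, as given below. The highest value of any probe set was between 13.80 and 13.87 per array, so both genes sat close to the upper end of the measurable range, where differences can be compressed.

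Pga5, which encodes a pepsinogen of the A type, varied most of the 7. It stood at 10.58 in LG21+Asp, 10.86 in Tep+Asp, 10.97 in GA+Asp, 10.70 in LG21+GA and 11.06 in GA+GA. The 2 arrays of LG21-treated mice were the lowest, and GA+GA was the highest. In the plot of the 7 genes by array, only Pga5 and Bhlha15 spanned more than 0.3 log2 units.

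**Figure D1:**
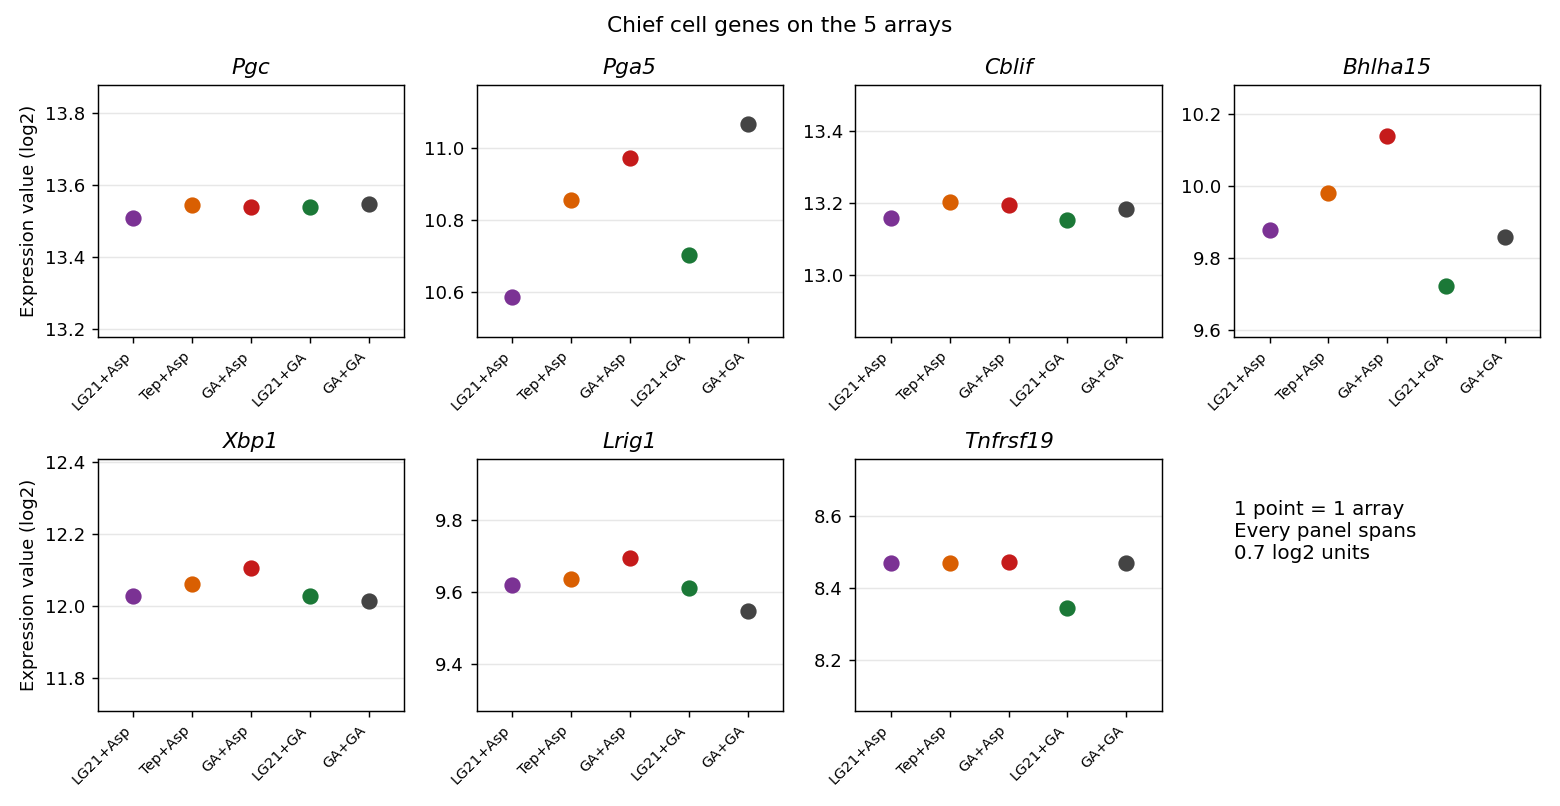
Expression values of the 7 chief cell genes (vertical axis, log2) on the 5 arrays (horizontal axis), with 1 point for each array and every panel spanning the same range. Pga5 ran between 10.58 and 11.06 and Bhlha15 between 9.72 and 10.14, while Pgc spanned 0.037.

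The regulators and progenitor markers differed in another order. Bhlha15 stood at 9.88 in LG21+Asp, 9.98 in Tep+Asp, 10.14 in GA+Asp, 9.72 in LG21+GA and 9.86 in GA+GA. GA+Asp was its highest array and LG21+GA its lowest. Xbp1 stood at 12.03 in LG21+Asp, 12.06 in Tep+Asp, 12.10 in GA+Asp, 12.03 in LG21+GA and 12.01 in GA+GA, with GA+Asp again the highest and GA+GA the lowest. Lrig1 stood at 9.62 in LG21+Asp, 9.64 in Tep+Asp, 9.69 in GA+Asp, 9.61 in LG21+GA and 9.55 in GA+GA, the same highest and lowest arrays as Xbp1. Tnfrsf19 stood at 8.34 in LG21+GA and at 8.47 on each of the other arrays, with the deposited value exactly equal in LG21+Asp, Tep+Asp and GA+GA. Such ties are common in this table, where 63.4% of probe sets had the same value on at least 2 arrays.

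Aspirin alone, GA+Asp against GA+GA, asks what the drug does in vehicle-treated mice. Of the 7 genes 1 was at least 1.2-fold apart, where 1.91% of 9969 genes above the filter were. Bhlha15 was 1.22-fold higher in GA+Asp (a difference of 0.28 on the log2 scale, as are all differences below), and 1.62% of genes differed by at least as much. Lrig1 was higher by 0.15 and Xbp1 by 0.090, both within 1.2-fold. Pga5 differed by -0.094, Pgc by -0.0063, Cblif by 0.013 and Tnfrsf19 by 0.0032. The aspirin difference in mice given the strain, LG21+Asp against LG21+GA, uses no array of that pair, and 0 of the 7 genes were 1.2-fold apart (1.79% of all genes). There Bhlha15 differed by 0.16, Tnfrsf19 by 0.13, Lrig1 by 0.0086 and Xbp1 by 9e-04. Pga5 differed by -0.12 and Pgc by -0.029.

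The strain alone, LG21+GA against GA+GA, went with a lower Pga5. Pga5 was 1.29-fold lower in LG21+GA (-0.36), the 1 gene of 7 at least 1.2-fold apart where 1.31% of all genes were, and 0.702% of genes differed by at least as much. Bhlha15 differed by -0.14, Tnfrsf19 by -0.13, Cblif by -0.029, Pgc by -0.0079, Xbp1 by 0.014 and Lrig1 by 0.064. The strain before aspirin (LG21+Asp against GA+Asp) shares no array with that pair. Pga5 was 1.31-fold lower in LG21+Asp (-0.39), again the 1 gene of 7 past 1.2-fold (1.85% of all genes), and 0.913% of genes differed by at least as much. Bhlha15 lay just inside the threshold at -0.26, a 1.199-fold difference. All 7 genes were lower in LG21+Asp than in GA+Asp, with a median of -0.074, against -0.013 for all genes. Among them Tnfrsf19 differed by only -0.0032, Pgc by -0.031 and Cblif by -0.038. At least as far apart were 78.3%, 52.2% and 46.5% of all genes, in that order. GA+Asp, which enters this pair and aspirin alone, was the highest of the 5 arrays in 4 of the 7 genes, and it was strictly the highest in 33.6% of the 9969 genes.

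The teprenone comparison (Tep+Asp against GA+Asp) had 0 of 7 genes past 1.2-fold (1.38% of all genes). Bhlha15 differed by -0.16 and Pga5 by -0.12, and the other 5 by less than 0.1 in either direction. Between the pretreatments, LG21+Asp against Tep+Asp, Pga5 was 1.21-fold lower in LG21+Asp (-0.27), the 1 gene of 7 past the threshold (1.35% of all genes). Bhlha15 differed by -0.10 there and Tnfrsf19 by 0.

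**Figure D2:**
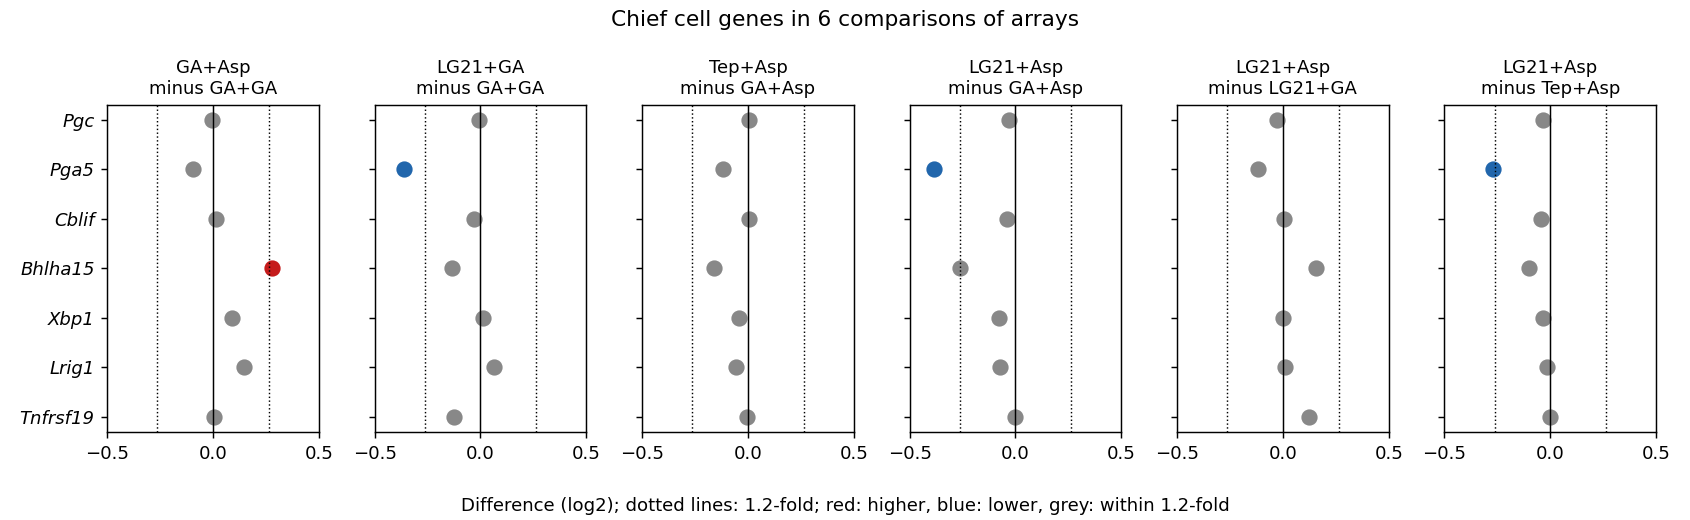
Differences of log2 values (horizontal axes) for the 7 genes in the 6 comparisons, first-named array minus second, with dotted lines at 1.2-fold. Pga5 lies beyond the lower line in the 3 comparisons of an LG21 array with an array without LG21, and Bhlha15 beyond the upper line in GA+Asp minus GA+GA.

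Aspirin is given by the labels on 3 arrays and absent from 2, and this contrast was fitted with limma over all 9969 genes, with arrays of different pretreatment standing in as replicates. The spread in this test therefore holds the pretreatments as well as the animals. Bhlha15 averaged 9.9996 ± 0.13 with aspirin (SD, n = 3) and 9.79 ± 0.10 without (SD, n = 2), a difference of 0.21 with a standard error of 0.098 and a limma adjusted p of 0.735. Lrig1 differed by 0.071 (standard error 0.034) and Xbp1 by 0.044 (standard error 0.026), both with a limma adjusted p of 0.735. For these 3 genes the arrays with and without aspirin did not overlap, as was so for 12.5% of all genes. With limma 0 genes of 9969 (0%) passed an adjusted p of 0.05, and 430 had an unadjusted p under 0.05, none of them among the 7. Without LG21+GA, which leaves GA+GA as the single aspirin-free array, 82 genes passed, and 0 of the 7 did.

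LG21 was given on 2 arrays and absent from 3, and a limma fit of LG21 with aspirin as a second term was added after the values were seen. The arrays without LG21 include Tep+Asp, so the spread in this fit holds teprenone as well as the animals. It rests on 2 residual degrees of freedom, with no replicates within a group. Pga5 averaged 10.64 ± 0.083 with LG21 (SD, n = 2) and 10.96 ± 0.10 without (SD, n = 3). The fitted difference was -0.34 with a standard error of 0.047, an unadjusted limma p of 0.00627 and a limma adjusted p of 0.693. It lay between -0.37 and -0.32 when each array was left out in turn. Cblif differed by -0.036 (standard error 0.0084, unadjusted limma p 0.0256, limma adjusted p 0.775) and Pgc by -0.022 (limma adjusted p 0.795). The LG21 arrays did not overlap the others in Pga5, Cblif and Pgc, as was so for 9.87% of all genes. Again 0 genes of 9969 (0%) passed with limma, and 581 had an unadjusted p under 0.05.

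The genes whose pattern over the 5 arrays lay closest to that of Pga5 included a pair of trypsinogens. Closeness was the root mean square difference between values centred on each gene's mean, and it was 0.057 for Try5, 0.077 for Try10 and 0.078 for the pseudogene Anp32-ps, where Pga5 itself had a root mean square deviation of 0.17. Try10 stood at 10.40 in LG21+Asp, 10.70 in Tep+Asp, 10.61 in GA+Asp, 10.41 in LG21+GA and 10.76 in GA+GA. Try5 stood at 7.35 in LG21+Asp, 7.61 in Tep+Asp, 7.60 in GA+Asp, 7.41 in LG21+GA and 7.86 in GA+GA. Both trypsinogens, precursors of a digestive protease, had the same highest and lowest arrays as Pga5, which their choice by closeness made likely in advance. Trypsinogen genes resemble each other closely, so which member these probe sets measure is uncertain. For Bhlha15 the closest were Hmox1 (0.033), which encodes the haem-degrading enzyme haem oxygenase, Ints8 (0.040), a subunit of the Integrator complex, and Cdca7 (0.040), where Bhlha15 had a deviation of 0.14. The 5 arrays are few, and many genes can lie this close.

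**Figure D3:**
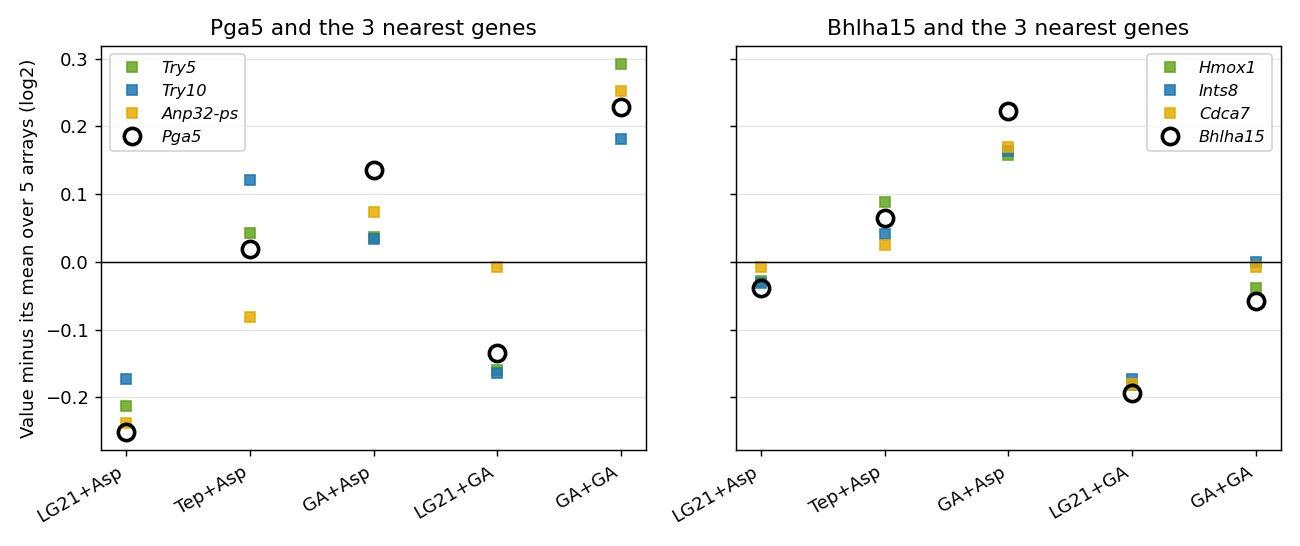
Values minus each gene's mean over the 5 arrays (vertical axes, log2) for Pga5 and for Bhlha15 (open circles) and the 3 genes closest to each (squares). Pga5, Try5 and Try10 are lowest in LG21+Asp and highest in GA+GA, and Bhlha15, Hmox1, Ints8 and Cdca7 are highest in GA+Asp and lowest in LG21+GA.

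Trypsinogens, Bhlha15 and Xbp1 are also expressed by pancreatic acinar cells, and Bhlha15 and Xbp1 by plasma cells. Of 14 acinar genes measured 9 lay below the filter level on average, among them the carboxypeptidase Cpa1, between 6.13 and 6.24 on the 5 arrays, and the acinar transcription factor Ptf1a, between 6.58 and 6.61. The summed acinar list, as log2 of the sum of linear values, stood at 14.22 in LG21+Asp, 14.22 in Tep+Asp, 14.24 in GA+Asp, 14.19 in LG21+GA and 14.21 in GA+GA, and is led by Clps, the colipase gene, at 13.66 to 13.71. The other 4 acinar genes above the filter were the lipase genes Pnliprp2 (11.65 to 11.77), Pnliprp1 (9.59 to 9.84) and Cel (8.25 to 8.79), and the elastase gene Cela1 (7.94 to 8.05). In the LG21 fit described above the differences of these 5 genes were -0.066 (Pnliprp2), -0.035 (Pnliprp1), -0.016 (Clps), 0.044 (Cela1) and 0.20 (Cel). Their limma adjusted p ran between 0.795 and 0.911. The arrays with and without LG21 overlapped in 4 of the 5. In Pnliprp2 both LG21 arrays lay below the other 3, and 9.87% of all genes did not overlap in either direction. Of 8 plasma cell genes 6 lay below the filter level, with the joining chain gene Jchain between 5.25 and 5.44 and Tnfrsf17 at 6.10 on every array. The summed plasma cell list ran between 10.997 and 11.013. It is led by its genes above the filter, Sdc1 (9.94 to 9.95) and Derl3 (9.12 to 9.20), and so says little of the others. Marker lists of liver and squamous epithelium moved far more between arrays. The 10 hepatocyte genes summed to 13.84 in LG21+Asp, 13.39 in Tep+Asp, 13.22 in GA+Asp, 14.17 in LG21+GA and 14.45 in GA+GA. In GA+Asp this sum is led by Apoa1, between 12.65 and 12.71 on all arrays, and so says little of the other genes. The list median was -3.21 for GA+Asp against GA+GA, where that of all genes was 0.013. Alb stood at 7.43 in GA+Asp, against 12.69 in GA+GA. The 11 squamous genes summed to 11.04 in LG21+Asp, 12.84 in Tep+Asp, 12.06 in GA+Asp, 12.33 in LG21+GA and 12.29 in GA+GA. GA+Asp, highest for Bhlha15, was lowest for the hepatocyte list, and LG21+Asp, lowest for Pga5, was lowest for the squamous list. The 6 proliferation genes summed to 11.66 in LG21+Asp, 11.62 in Tep+Asp, 11.57 in GA+Asp, 11.63 in LG21+GA and 11.85 in GA+GA. Of these 6 genes 4 (Mki67, Top2a, Ccna2 and Rrm2) were at least 1.2-fold lower in GA+Asp than in GA+GA, where 1.91% of all genes were past 1.2-fold in either direction, and the list median was -0.40, against 0.013 for all genes. In LG21+GA against GA+GA 2 of them (Top2a and Ccna2) were so, where 1.31% of all genes were past 1.2-fold, and the list median was -0.22, against 0 for all genes. The part of acinar and plasma cells, of these tissues and of proliferation in the Pga5 and Bhlha15 differences was not tested. In whole tissue, fewer cells of a type and less RNA per cell cannot be told apart.

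Neighbouring gland cell types were read from their marker lists. The tissue is labelled gut, and genes of the acid-secreting stomach were high on all arrays, with a median level of 12.40 to 12.48 for 7 parietal cell genes and 13.29 to 13.32 for 5 surface mucous cell genes. Mucous neck cells give rise to chief cells in the classical account of the gland. Their mucin Muc6 stood between 11.66 and 11.75 and their trefoil peptide Tff2 between 12.83 and 12.89. For the 7 neck cell genes the median difference was -0.013 for GA+Asp against GA+GA and 0 for LG21+GA against GA+GA. The median was 0.049 for LG21+Asp against GA+Asp, with 5 genes above 0 and 2 below, where that of all genes was -0.013, and 0.048 for LG21+Asp against LG21+GA, where that of all genes was 0. The neck cell gene Gkn3, a gastrokine, was past 1.2-fold in the strain alone (9.17 in LG21+GA, against 8.86 in GA+GA). Of 6 endocrine cell genes 0 of the 5 above the filter were past 1.2-fold in any of the 6 comparisons, and Gast, the gastrin gene, which lies below the filter, was past it in 1 (7.28 in LG21+Asp, against 6.99 in Tep+Asp). The median of the 6 was 0.092 for GA+Asp against GA+GA, with 5 above 0, where that of all genes was 0.013. It was 0.066 for LG21+Asp against LG21+GA, with 6 above 0, where that of all genes was 0.

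Genes of the secretory machinery that Xbp1 and Bhlha15 serve were mostly within 1.2-fold. Of 36 genes of endoplasmic reticulum translocation, folding and quality control, all above the filter, 2 were at least 1.2-fold higher and 0 lower in GA+Asp than in GA+GA, where 81 of the 9969 genes were higher and 109 lower (1.91% in either direction). These were Dnajb9, a chaperone induced by Xbp1 (10.23 in GA+Asp, against 9.96 in GA+GA), and Herpud1, a component of protein degradation at the reticulum (11.76 in GA+Asp, against 11.48 in GA+GA). The median was 0.027, against 0.013 for all genes, with 25 genes above 0, 8 below and 3 equal. The other aspirin pair, LG21+Asp against LG21+GA, did not repeat this. There the median was 0, as for all genes, with 16 genes above 0, 16 below and 4 equal. Dnajb9 averaged higher with aspirin by 0.22 over the 3 and 2 arrays (standard error 0.041, limma adjusted p 0.735). For it these arrays did not overlap, as was so for 12.5% of all genes. On this list they also did not overlap in Manf, Syvn1 and Atf6, higher with aspirin, and in P4hb, lower (-0.055). In 18 of the 36 genes, as in Bhlha15 and Xbp1, the value in GA+Asp exceeded that of every other array, as it did in 33.6% of the 9969 genes. With LG21 alone and in LG21+Asp against GA+Asp 0 of the 36 were past 1.2-fold, where 1.31% and 1.85% of all genes were. At such shares a count of 0 says little of a short list. Of 15 genes of granules and regulated exocytosis 0 were past 1.2-fold in either of these comparisons or with aspirin alone. They include Rab3d, a Bhlha15 target in mice that coats zymogen granules, which stood at 10.11 in LG21+Asp, 10.10 in Tep+Asp, 10.24 in GA+Asp, 10.21 in LG21+GA and 10.18 in GA+GA.

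**Figure D4:**
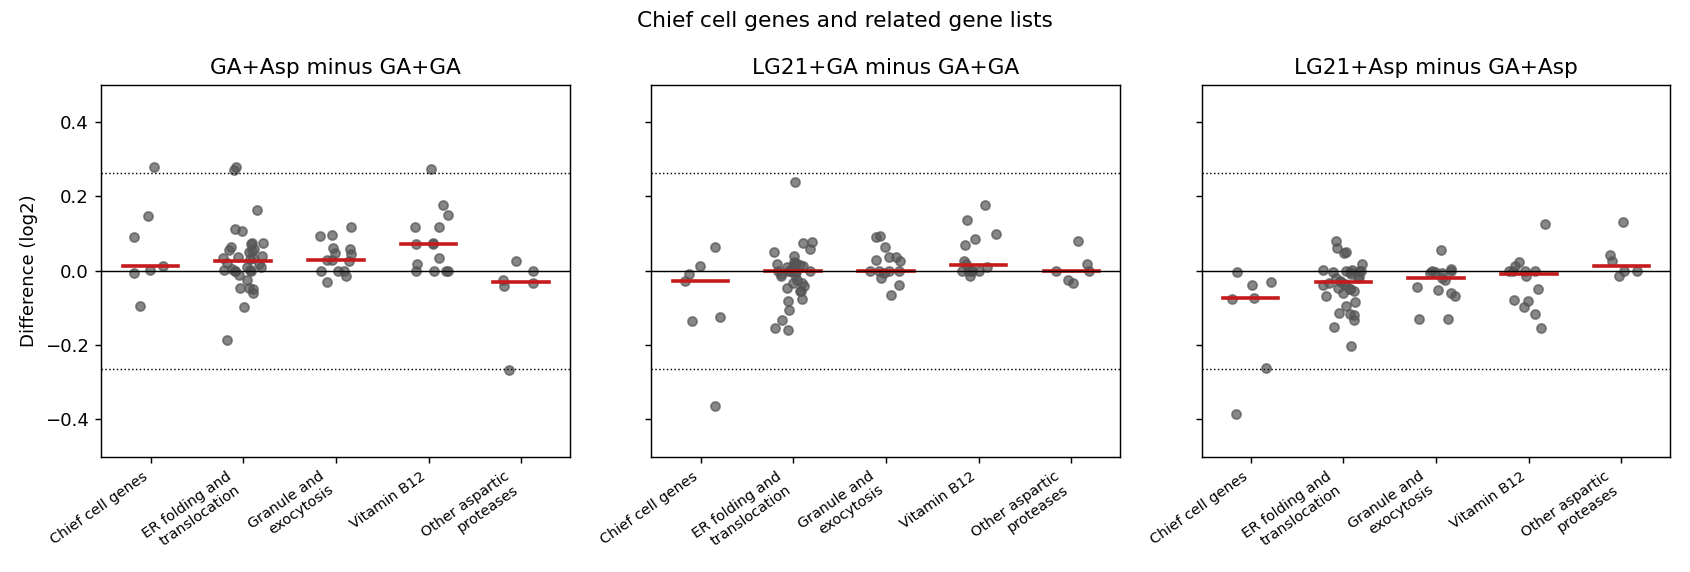
Differences of log2 values (vertical axis) for the chief cell genes and 4 related lists in 3 comparisons, with 1 point for each gene, red bars at list medians and dotted lines at 1.2-fold. Only Bhlha15, Dnajb9, Herpud1, Mmachc, Cym and Pga5 lie beyond a line.

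The aspartic proteases, the enzyme family of the pepsinogens, held 1 gene past the threshold among 6 measured. Cym, which encodes the milk-clotting protease chymosin, stood at 12.88 in LG21+Asp, 12.93 in Tep+Asp, 12.75 in GA+Asp, 13.03 in LG21+GA and 13.02 in GA+GA. It was lower by 0.27 in GA+Asp than in GA+GA (a difference of -0.27), where 1.91% of all genes were past 1.2-fold. Its 3 aspirin arrays lay below both others, and 12.5% of all genes did not overlap in either direction. Over those arrays Cym differed by -0.17 (standard error 0.063, limma adjusted p 0.735). Its order was thus unlike that of Pga5. Ctse, which encodes cathepsin E of surface cells, ran between 13.15 and 13.20, and the lysosomal Ctsd between 11.67 and 11.69.

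The vitamin B12 pathway around Cblif held 14 measured genes, 9 above the filter. With aspirin alone 1 of them was 1.2-fold apart, where 1.91% of all genes were. The median of the 14 genes was 0.071, with 10 above 0, 1 below and 3 equal. That of all genes, taken above the filter only, was 0.013. In LG21+Asp against LG21+GA the list median was 0, with 6 genes above 0, 4 below and 4 equal. The median of all genes there was also 0. Mmachc, which processes imported B12, stood at 9.92 in LG21+Asp, 9.92 in Tep+Asp, 10.02 in GA+Asp, 9.92 in LG21+GA and 9.74 in GA+GA. GA+GA was its lowest array, so each comparison with GA+GA reads as higher. The blood carrier Tcn2 ran between 11.34 and 11.45. Cubn and Amn, which form the ileal receptor for intrinsic factor, lay below the filter, with Cubn at 5.38 on every array and Amn between 6.81 and 7.003.

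Genes around Lrig1 and Tnfrsf19 were mostly within 1.2-fold. Of 14 ErbB genes 0 of the 10 above the filter were past 1.2-fold in any of the 6 comparisons. Between 1.31% and 1.91% of all genes were so in each comparison. Ereg, on this list but below the filter, was past 1.2-fold in both comparisons of Tep+Asp. It stood at 7.67 in Tep+Asp and at 7.15 in GA+Asp and in LG21+Asp. Egfr, the receptor that Lrig1 restrains, stood at 9.01 in LG21+Asp, 9.15 in Tep+Asp, 9.13 in GA+Asp, 9.15 in LG21+GA and 9.25 in GA+GA. Its difference in the LG21 fit was -0.12 (standard error 0.013, unadjusted limma p 0.00328, limma adjusted p 0.693). Errfi1, an inhibitor of Egfr, differed there by -0.099 (unadjusted limma p 0.00608, limma adjusted p 0.693). In both genes the arrays with and without LG21 overlapped. Of 18 Wnt and progenitor genes 1 of the 12 above the filter was past 1.2-fold in any comparison. It was Cd44, a surface glycoprotein, higher in Tep+Asp than in GA+Asp (8.14 against 7.86) and lower in LG21+Asp than in Tep+Asp (7.83 against 8.14). Sox9, a progenitor transcription factor, ran between 10.03 and 10.08.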

How the data were processed

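The deposited log2 values are RMA expression values from Affymetrix Mouse Gene 1.0 ST arrays, made by the authors with Expression Console per the labels, although the series design mentions the Exon Array Computational Tool instead. The log2 scale was read from the values, and the sources used here give neither software versions nor a build. Among 35557 probe sets, 21789 had 1 gene symbol, 1621 several and 12147 none. A gene with several probe sets was represented by the one of highest mean, and symbols were updated through RefSeq gene identifiers (GRCm38.p6). Counts were made among genes above the median level. The number of arrays limits the precision.

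In 6 pairs of arrays log2 values were subtracted, with 1.2-fold as the threshold. Aspirin was fitted with limma 3.58.1 in R 4.3.3 with Benjamini-Hochberg adjustment, tested on simulated data. The members, 18 further gene lists and tests were chosen with earlier results of these data known. Of 215 symbols listed 205 genes were measured. Names come from the members, list genes past 1.2-fold or with the highest level, the aspartic protease and B12 genes, and the 3 closest patterns, and not every gene this rule allows is named. Other list genes named as examples were chosen after their values were seen. Alternatives were other thresholds, filters, probe set summaries, normalizations (cyclic loess with 3 iterations), model terms and leaving out each array.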

Additional observations from a re-analysis of the deposited data

How the results depend on the processing

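No paired analysis was possible because each group has 1 array. Numbers of genes past the threshold moved with threshold and filter in the comparisons GA+Asp minus GA+GA, LG21+GA minus GA+GA, Tep+Asp minus GA+Asp, LG21+Asp minus GA+Asp, LG21+Asp minus LG21+GA and LG21+Asp minus Tep+Asp, given in this order. At 1.2-fold they were 190, 131, 138, 184, 178 and 135. At 1.1-fold they were 915, 631, 731, 917, 660 and 611, and at 1.5-fold 49, 35, 41, 57, 55 and 47. Without a filter they were 580, 417, 462, 671, 463 and 496, and with a filter at the 75th percentile 68, 56, 53, 63, 77 and 51. The mean of probe sets, quantile normalization and cyclic loess kept these counts within 1.5 times.

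Under quantile normalization and cyclic loess, 82 of 84 recomputed differences of the 7 genes stayed on their side of 1.2-fold, 2 moved inside it, 0 newly passed it and 0 changed sign past it. Each of the 7 has 1 probe set, so the mean of probe sets leaves its values as they are. At 1.1-fold 4 further differences of the 7 genes counted. Pga5 in LG21+Asp against Tep+Asp was -0.26 after quantile normalization, and Bhlha15 with aspirin alone 0.26 after cyclic loess, both inside 1.2-fold. No difference of the 7 genes reached 1.5-fold. The Pgc differences were all 0 after quantile normalization. After cyclic loess Pgc was higher by 0.0062 in LG21+GA than in GA+GA, where the deposited values gave -0.0079. The aspirin fit called between 0 and 82 genes with 1 array left out, the 82 without LG21+GA. The LG21 fit called 0 genes in each such fit. The limma adjusted p of Pga5 in the LG21 fit ran between 0.412 and 0.826 over its alternatives, and that of Bhlha15 in the aspirin fit between 0.665 and 0.984.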

Other observations

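Genes of other gland and digestive cells on the lists also differed. Cel, which encodes the bile salt-activated lipase, stood at 8.61 in LG21+Asp, 8.64 in Tep+Asp, 8.67 in GA+Asp, 8.79 in LG21+GA and 8.25 in GA+GA. It was higher than GA+GA by 0.42 in GA+Asp and by 0.54 in LG21+GA, and GA+GA was its lowest array. Gkn3, a gastrokine of mucous neck cells in mice, stood at 9.0005 in LG21+Asp, 8.89 in Tep+Asp, 8.84 in GA+Asp, 9.17 in LG21+GA and 8.86 in GA+GA. It was higher by 0.31 in LG21+GA than in GA+GA, and both LG21 arrays lay above the other 3. In 9.87% of all genes the arrays with and without LG21 did not overlap, in either direction. The other neck cell genes above the filter differed in the LG21 fit by 0.031 (Spdef), 0.027 (Aqp5), 0.0028 (Muc6), -0.018 (Tff2) and -0.075 (Agr2).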
